A study of Homo sapiens with 9 samples.

Results

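The keratin genes were described on whole-genome arrays of HK-1 cells, an established human nasopharyngeal carcinoma line, cultured with or without the flavonoid baicalein. Every gene probe whose whole name was KRT followed by a number and at most 1 letter was taken, so that keratin-associated proteins were left out. The rule gave 56 probes with 53 gene names, out of 25378 probes with 19402 gene names. By their textbook classes, 37 probes (36 genes) were epithelial keratins, namely 5 probes of simple epithelia, 23 of stratified epithelia and 9 of the inner root sheath and companion layer of the hair follicle. Another 17 probes (16 genes) were hair keratins, and the remaining 2 probes both named KRT222, which was placed in neither class. KRT8 and KRT86 were not analysed here.

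RNA of HK-1 monolayers was labelled with a single dye (Cy3), and each sample was hybridised to an array of its own. The 3 control arrays carried cells labelled as not treated, whereas the study's methods name DMSO, the solvent of baicalein, as the control. The other arrays carried cells given 10 µM baicalein (3 arrays) or 20 µM baicalein (3 arrays) for 24 h in serum-free medium, followed by fresh medium for a further 24 h according to the deposited design. The groups shared the cell line, the growth medium and the labelling, and all values therefore come from 1 line in culture. No exposure or fresh-medium time is given for the control arrays. A difference in handling from the treated arrays therefore cannot be told apart from baicalein. The study calls the 3 arrays of a group biological replicates, and the p-values here measure only the spread between these arrays.

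Keratins are the intermediate filament proteins of epithelial cells. Each filament is built from pairs of an acidic type I keratin and a basic type II keratin, and partners are usually made together. Simple epithelia are known for KRT8 with KRT18, the basal layer of stratified epithelia for KRT5 with KRT14, the layers above it for KRT1 with KRT10 in skin and KRT4 with KRT13 in mucosa, and wounded or hyperproliferative epithelium for KRT6A, KRT16 and KRT17. The hair keratins harden the shaft of hair and nail and are not a usual product of nasopharyngeal epithelium. All 53 names matched a RefSeq gene symbol. In that annotation the 24 type II genes lie together on chromosome 12, beside the type I gene KRT18, and the other 28 type I genes lie on chromosome 17.

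A level is given as the net intensity of a spot, the raw intensity less its local background, divided by the 95th percentile of net intensity over the 8926 empty spots of the same array. A ratio above 1 is brighter than that bound. The brightness of a probe depends on its sequence as well as on its transcript, so ratios rank arrays for a probe, and the classes are set side by side only as groups of probes. Local background made up 86.5 to 88.3% of the median raw intensity of named probes. The bound lay between 1266 and 1823 units of net intensity. It was highest on the first 20 µM array, where the fewest named probes were above it (6.95%). The first control array had the most (17.4%), against 7.64 to 9.2% on the other 7 arrays. In bulk RNA of this kind, fewer cells that make a transcript and less transcript per cell cannot be told apart.

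In control cells, few epithelial keratins and no hair keratin lay above the empty spots. On all 3 control arrays 2 of the 37 epithelial probes (5.41%) were above the bound, against 0 of the 17 hair probes and 6.62% of all named probes. On at least 1 control array 12 epithelial probes (32.4%) were above it, against 0 hair probes and 19.7% of named probes. Over all 9 arrays 13 epithelial probes (35.1%) passed the bound at least once, against 0 hair probes and 26.9% of named probes, and 1 epithelial probe passed it on every array, as did 3.15% of named probes. Taken as a family, 13 of the 56 keratin probes (23.2%) passed at least once and 43 never did. A single array carried much of the epithelial count, since 11 keratin probes were above the bound on the first control array and between 2 and 5 on each of the other arrays. KRT25, KRT26 and KRT74 of the root sheath and KRT76, KRT78 and KRT79 of stratified epithelia passed there and nowhere else, with ratios of at most 1.23. Without that array, 7 epithelial probes (18.9%) were above the bound on at least 1 of the remaining 8, against 0 hair probes and 21.0% of named probes.

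**Figure D1:**
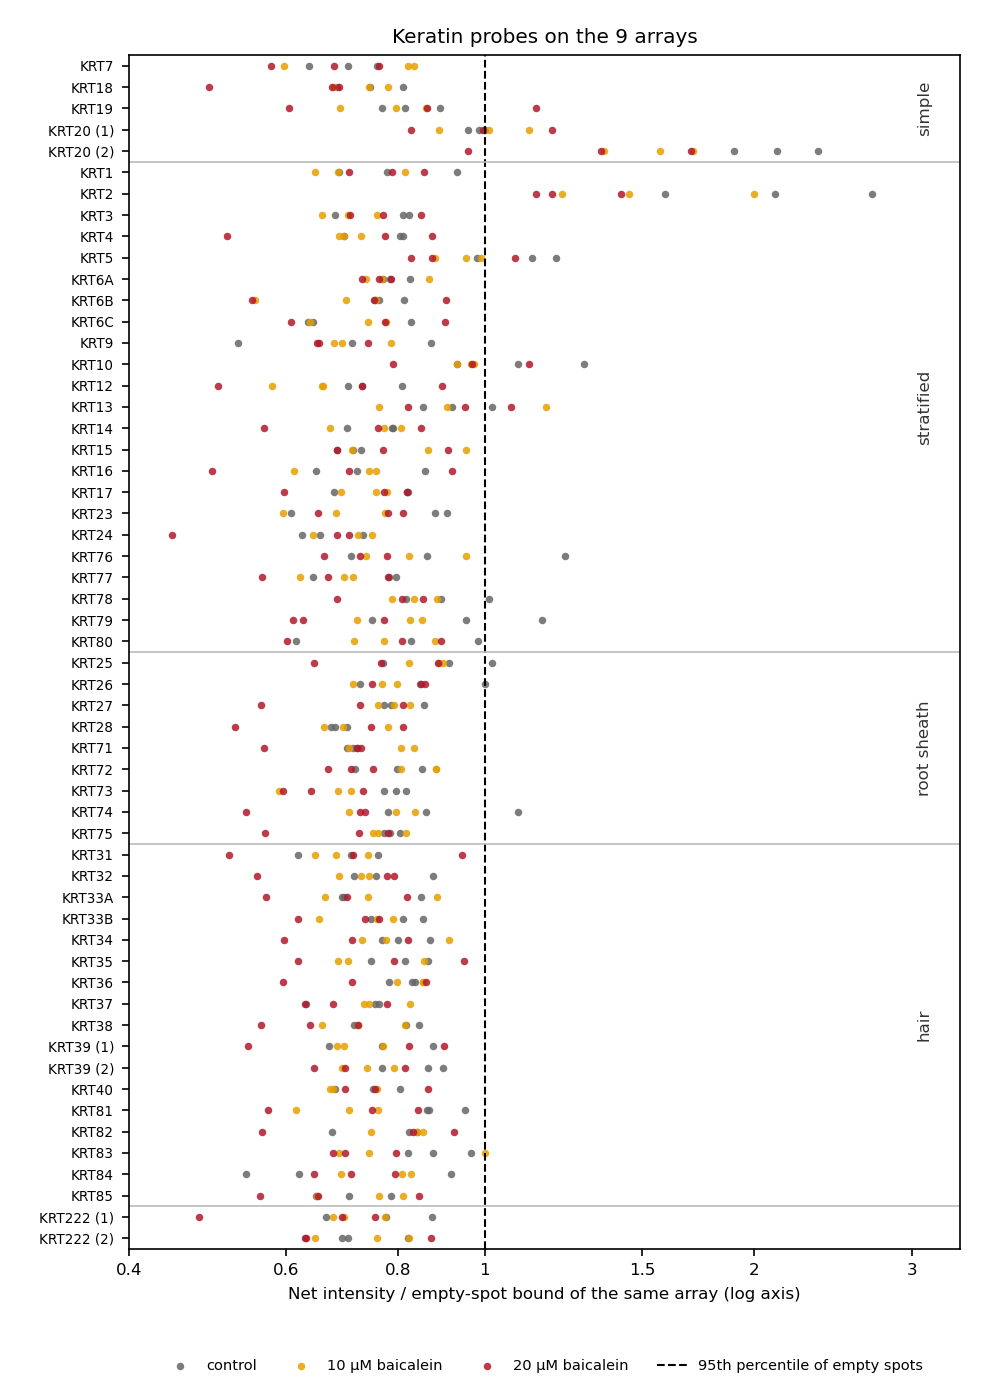
Net intensity of each of the 56 keratin probes divided by the empty-spot bound of the same array, on a log axis, with a point for each of the 9 arrays coloured by baicalein dose and the dashed line at the bound. All points of the 17 hair probes lie at or left of the line, and KRT2 is the single probe whose 9 points all lie right of it.

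Outside the few bright probes, the typical level of both classes was that of an empty spot. The median epithelial ratio was 0.818, 0.81 and 0.771 on the 3 control arrays, 0.778, 0.792 and 0.741 on the 10 µM arrays and 0.608, 0.787 and 0.779 on the 20 µM arrays. The median hair ratio was 0.811, 0.814 and 0.746 on the control arrays, 0.739, 0.743 and 0.742 on the 10 µM arrays and 0.595, 0.793 and 0.713 on the 20 µM arrays. The epithelial median less the hair median ranged from -0.00647 to 0.0658 over the 9 arrays, so the middle of either class was nearly the same. The medians of all named probes (0.608 to 0.825) and of the empty spots (0.697 to 0.834) covered the same levels. Within every array the epithelial median was below that of the empty spots. The hair median was too except on the second 20 µM array, and the named median except on the first control array. The first 20 µM array was the lowest for every one of these sets. In the middle over the 3 control arrays, epithelial probes ran from 0.642 through a median of 0.798 to 2.12, whereas hair probes ran from 0.62 through 0.799 to 0.875. Above the brightest hair probe lay 10 epithelial probes, and of these only KRT2 and a probe of KRT20 exceeded a ratio of 2. The upper quartile was 0.88 for epithelial, 0.822 for hair and 0.844 for all named probes, whose highest was 36.0. The share of named probes above the brightest hair probe was not counted, so the 10 are not read as a trait of epithelial keratins. No test over probes was made, because probes are not replicates of a class.

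**Figure D2:**
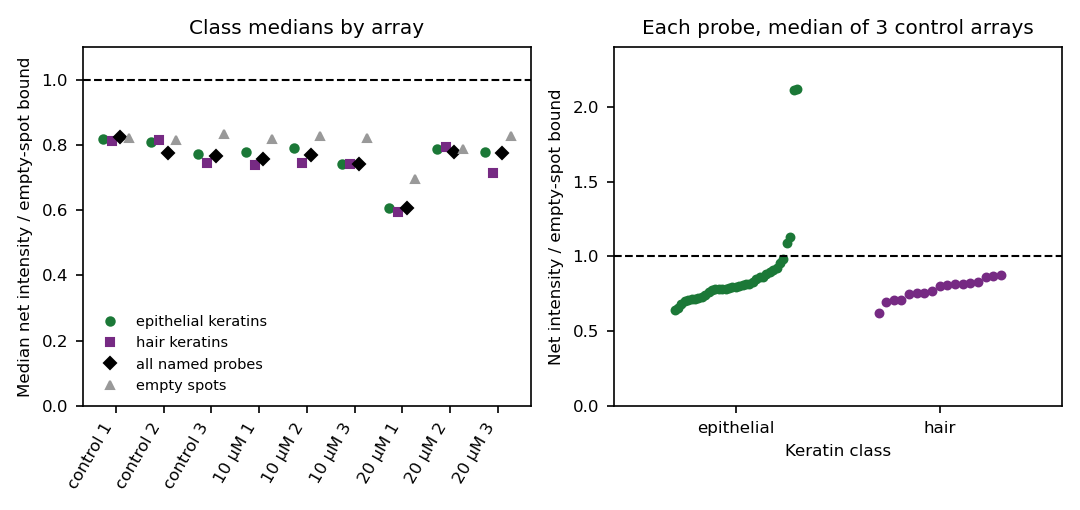
The left panel gives for each of the 9 arrays the median ratio of net intensity to the empty-spot bound over epithelial keratins, hair keratins, all named probes and empty spots, and the right panel gives each epithelial and hair probe as its median over the 3 control arrays, with the dashed line at the bound. Class medians stay between 0.595 and 0.818, and the epithelial probes that reach 2.12 have no counterpart among hair probes.

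KRT2, a type II keratin of the upper layers of the epidermis, was the only keratin probe that passed the bound on every array. The KRT2 ratio was 2.71, 1.59 and 2.11 in control cells, 2.0, 1.45 and 1.22 at 10 µM and 1.14, 1.19 and 1.42 at 20 µM. All 20 µM values lay below all control values, and the 10 µM values overlapped both. Such a drop at 20 µM on this scale was common: 13.8% of all named probes showed it. Of the 799 named probes above the bound on all 9 arrays, 67.3% did. KRT20, a type I keratin of the gut lining and urothelium, had 2 probes that disagreed. Its probe PH_hs_0042049 had ratios of 2.36, 1.9 and 2.12 in control cells, 1.71, 1.57 and 1.36 at 10 µM and 1.35, 0.958 and 1.7 at 20 µM, above the bound on 8 of 9 arrays. All control values of that probe lay above all treated ones. At 10 µM against control, 9.88% of all named probes were lower without overlap on this scale, as were 25.2% of those 799. The KRT20 probe PH_hs_0004807 gave 1.0, 0.957 and 0.985 in control cells, 1.12, 1.01 and 0.89 at 10 µM and 0.827, 1.19 and 0.995 at 20 µM. It crossed the bound on 4 arrays, showed no order by dose, and was the brighter of the pair on 1 of 9 arrays. The genes on either side of these loci did not share the signal: KRT1 and KRT73, which flank KRT2, stayed below the bound on all 9 arrays, as did KRT12 and KRT23 beside KRT20.

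**Figure D3:**
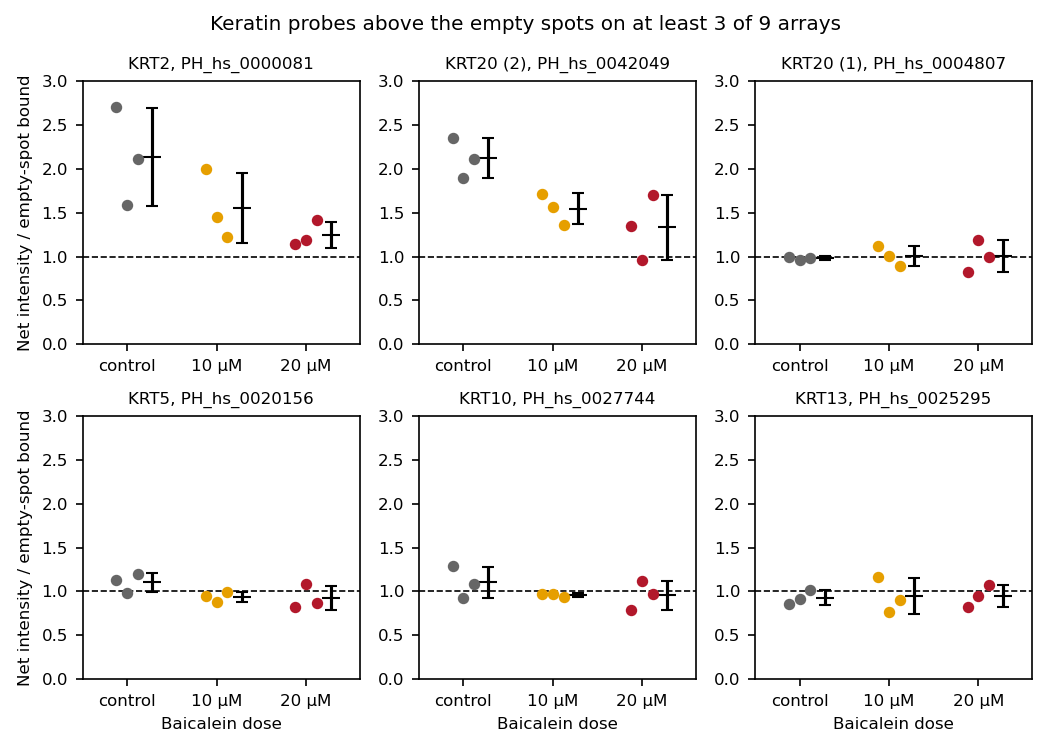
Ratio of net intensity to the empty-spot bound for the 6 keratin probes above the bound on at least 3 of the 9 arrays, with a point per array in control, 10 µM and 20 µM baicalein groups, and the mean and SD of each group (n = 3) beside its points. KRT2 averages 2.14, 1.55 and 1.25 with rising dose, while KRT5, KRT10, KRT13 and the first KRT20 probe stay around the dashed line of 1.

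Besides KRT2, the marker keratins of stratified epithelium lay near the bound or below it, with ratios of at most 1.29. KRT5, the type II keratin of basal cells, had ratios of 1.13, 0.98 and 1.2 in control cells, 0.954, 0.88 and 0.991 at 10 µM and 0.827, 1.08 and 0.872 at 20 µM. It was thus above the empty spots on 3 arrays, and its groups overlapped. KRT14, its type I partner, reached at most 0.849 on any array. KRT10, the type I keratin of differentiating epidermis, had ratios of 1.29, 0.931 and 1.09 in control cells, 0.973, 0.966 and 0.932 at 10 µM and 0.789, 1.12 and 0.967 at 20 µM. Its type II partner KRT1 reached at most 0.931. KRT13, the type I keratin of non-cornifying mucosa such as the nasopharynx, had 0.852, 0.92 and 1.02 in control cells, 1.17, 0.762 and 0.907 at 10 µM and 0.821, 0.95 and 1.07 at 20 µM, on both sides of the bound in every group, whereas its partner KRT4 reached at most 0.874. In none of these pairs did both partners pass the bound.

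The other keratins of simple epithelia, and those of activated epithelium, stayed below the empty-spot bound too, except KRT19 on 1 array. KRT18, a type I keratin of nearly all simple epithelia and most carcinoma lines, had 0.81, 0.745 and 0.683 in control cells, 0.78, 0.742 and 0.679 at 10 µM and 0.492, 0.675 and 0.688 at 20 µM. KRT19, a small type I keratin also found in many carcinomas, had 0.891, 0.767 and 0.815 in control cells, 0.796, 0.859 and 0.689 at 10 µM and 0.605, 0.861 and 1.14 at 20 µM, so that it passed the bound on the third 20 µM array alone. KRT7, a type II keratin of ducts and glands, reached at most 0.834. For KRT6A, KRT16 and KRT17, the highest ratios on any array were 0.866, 0.918 and 0.821. A probe at the level of empty spots was not detectable here, which does not show that its transcript was absent.

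The labelled cell type was therefore checked on other genes. Of 24 probes for 16 markers of squamous carcinoma epithelium, 1 probe was above the bound on all 9 arrays, that of the tight junction gene CLDN4, against 3.15% of all named probes. CDH1 (E-cadherin), TP63 (the master regulator of stratified epithelium), DSP, SFN and GRHL2 were above it on 0 arrays, and EPCAM on 1. In all, 10 of the 16 squamous markers passed on no array. Of the markers of other cell types, 6 of 10 fibroblast, 8 of 10 leukocyte, 4 of 8 endothelial and 4 of 7 melanocyte genes passed on no array, COL1A1, PTPRC, PECAM1 and TYR among them. Counted by probe, 18548 of all 25378 named probes passed on no array. Such counts were thus common to every list and did not tell the cell types apart. The exceptions that passed on most arrays were PDGFRB (9 arrays) and FAP (7) of fibroblasts, CD3D (8) of T cells, and TEK and CLDN5 (8 each) of endothelium. The summed ratio of the squamous markers was 21.1 to 24.5 in control cells, 20.8 to 21.6 at 10 µM and 16.8 to 21.0 at 20 µM. That of the 10 endothelial probes was 8.48 to 9.35, 8.63 to 8.83 and 6.4 to 8.56 in the same order of groups, that of the 13 fibroblast probes 13.2 to 15.3, 12.3 to 14.2 and 9.8 to 13.2, that of the 13 leukocyte probes 11.2 to 12.6, 10.5 to 11.2 and 8.83 to 16.5, and that of the 10 melanocyte probes 7.28 to 8.6, 7.12 to 7.86 and 6.26 to 8.3. Ribosomal protein genes, which every cell uses, had 3 of 101 probes above the bound on all 9 arrays (RPL10, RPL23 and RPS15), again against 3.15% of named probes. Low detection was thus not particular to the keratins, and its part in their levels was not tested.

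Among hair keratins, the brightest were KRT83, KRT81 and the second probe of KRT39 by their median over control arrays. KRT83, a type II keratin of the hair cortex, had 0.966, 0.875 and 0.82 in control cells, 0.687, 1.0 and 0.742 at 10 µM and 0.698, 0.677 and 0.796 at 20 µM. The value printed as 1.0 was a net intensity of 1301 on an array whose bound was 1302, and it was the nearest that any hair probe came. KRT81, also a type II cortex keratin, had 0.951, 0.866 and 0.861 in control cells, 0.705, 0.615 and 0.76 at 10 µM and 0.573, 0.748 and 0.843 at 20 µM. All control values were higher than all treated ones, but none exceeded the bound. Of all named probes, 9.88% were lower than control without overlap on this scale at 10 µM, and 13.8% at 20 µM. The second KRT39 probe had 0.899, 0.865 and 0.768 in control cells, 0.739, 0.791 and 0.692 at 10 µM and 0.644, 0.815 and 0.698 at 20 µM. For the 2 probes of KRT39, a type I hair keratin, the medians in control, 10 µM and 20 µM cells were 0.767, 0.697 and 0.823 for the first and 0.865, 0.739 and 0.698 for the second, and the first was the brighter on 3 of 9 arrays. For the 2 probes of KRT222, a keratin-like gene, they were 0.775, 0.697 and 0.692 for the first and 0.703, 0.758 and 0.631 for the second, with the first brighter on 5 of 9 arrays. Neither pair had an array above the bound, so their disagreement was one between values of empty-spot brightness. The keratin-associated proteins, which embed the hair keratins in the shaft, had 1 of 61 probes above the bound on all 3 control arrays and 0 on all 9, against 6.62% and 3.15% of named probes.

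Whether baicalein moved keratin transcripts was asked with limma on quantile-normalised log2 raw intensity, with p-values adjusted by Benjamini-Hochberg over all 25378 named probes. The values that follow are differences on this scale, which holds the local background and so understates a change in net intensity. In 10 µM cells against control, 0 keratin probes had an adjusted p under 0.05 (lowest adjusted p = 1.000) and 0 an unadjusted p under 0.05, against 0.780% of all named probes. When the control and 10 µM arrays were fitted alone and paired by replicate number, 2 keratins had an unadjusted p under 0.05, KRT2 (0.0328) and KRT17 (0.0285), against 2.1% of named probes, and 0 passed after adjustment. For 20 µM against control, 0 keratin probes passed after adjustment (lowest adjusted p = 1.000) and 1 before it, against 2.34% of named probes. Between 20 µM and 10 µM cells, 0 passed after adjustment (lowest adjusted p = 0.993) and 2 before it, against 3.37% of named probes. In this fit no named probe of the array passed after adjustment in any comparison, and the nearest had an adjusted p of 0.052 at 20 µM against 10 µM. The equal-variance test named in the methods likewise called 0 keratins after adjustment.

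Epithelial and hair keratins were each split between higher and lower values, on arrays whose centre the normalisation had set to a common value. In the 10 µM comparison with control, 18 epithelial probes were higher and 19 lower with a median of -0.0056, while 9 hair probes were higher and 8 lower with a median of 0.0018, and the median of all named probes was 0.0017. In the 20 µM comparison with control, 16 epithelial probes were higher and 21 lower (median -0.0033), 8 hair probes were higher and 9 lower (median -0.00037), and the median of named probes was -0.00047. Between the doses, with 20 µM set against 10 µM, 22 epithelial probes were higher and 15 lower (median 0.011), 10 hair probes were higher and 7 lower (median 0.025), and the median of named probes was -0.0015. Single keratins ranged from -0.13 to 0.066 at 10 µM and from -0.18 to 0.17 at 20 µM against control. The higher end at 20 µM was the second KRT222 probe (0.17 with SE 0.087, unadjusted p = 0.0731), whose level was below the bound on all 9 arrays.

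**Figure D4:**
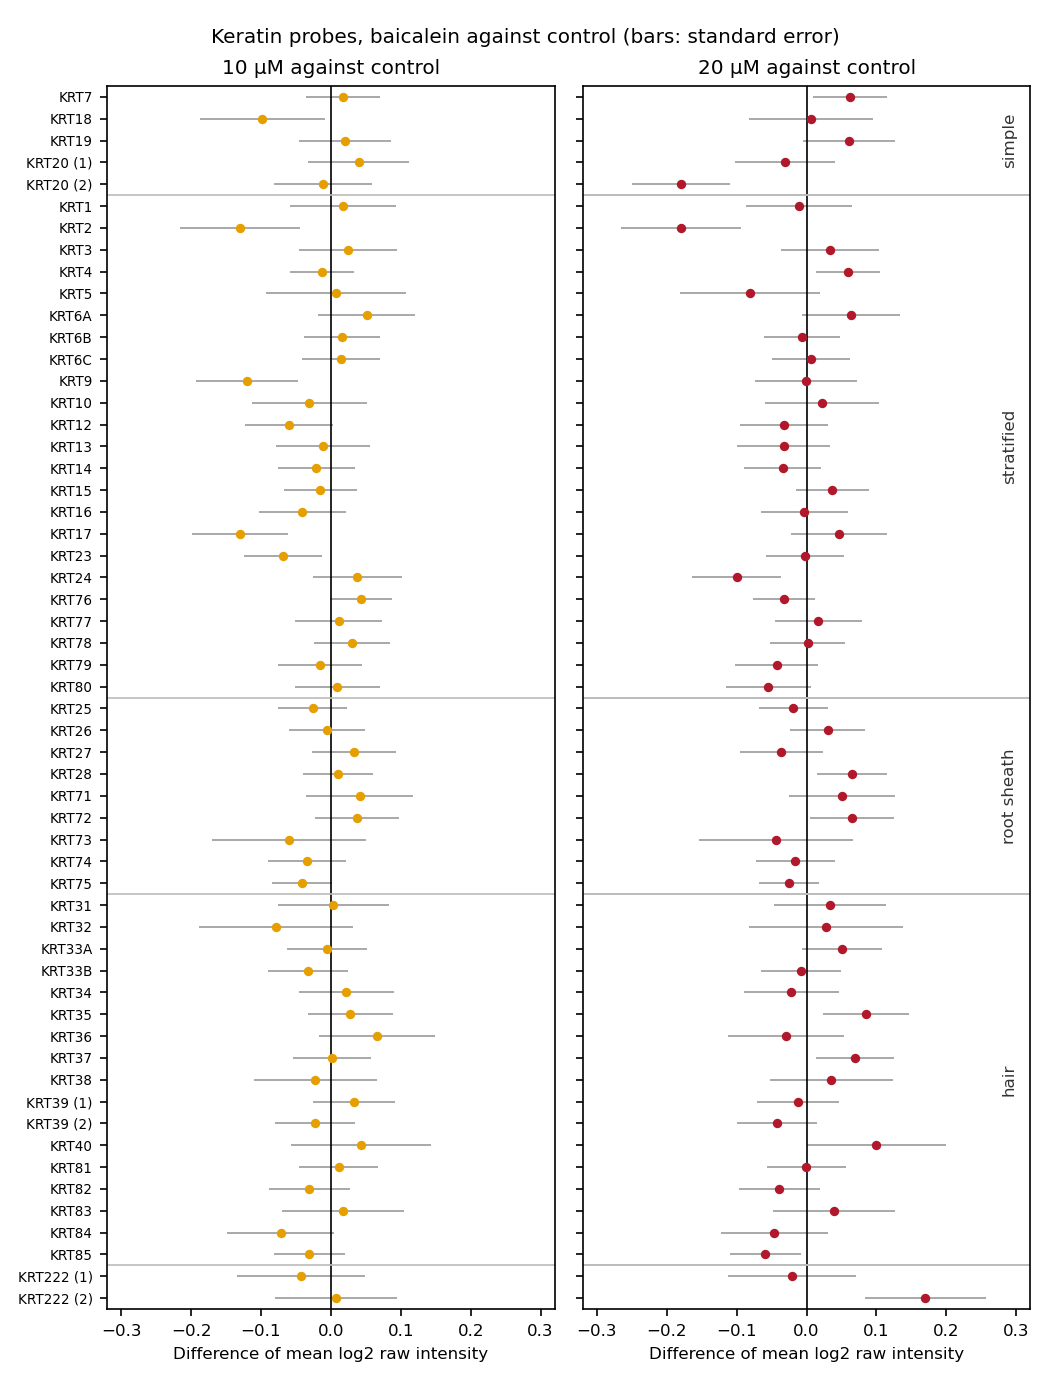
Difference of mean log2 raw intensity of each keratin probe at 10 µM (left) and 20 µM (right) baicalein against control, with bars of 1 standard error from limma (n = 3 arrays per group). Points range from -0.13 to 0.066 in the left panel, and the lowest in the right panel are KRT2 and the second KRT20 probe, at -0.18 each.

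On the log2 raw scale of the tests, arrays of 2 groups did not overlap for few keratins. On the ratio to the bound further separations from control were found. Among them were KRT81 at both doses, KRT2 at 20 µM and the second KRT20 probe at 10 µM, as given above. With 10 µM set against control, groups on the raw scale did not overlap for 2 probes, against 5.24% of all named probes. These were KRT75 of the companion layer and KRT17, both lower at 10 µM. With 20 µM set against control it held for KRT6A, higher at 20 µM, and the second KRT20 probe, lower at 20 µM, against 5.54% of named probes. With 20 µM set against 10 µM it held for KRT17 and KRT4, both higher at 20 µM, and for KRT76, lower at 20 µM, against 7.96% of named probes. As shares of the 56 keratins these counts were 3.57%, 3.57% and 5.36%, all under the shares over the whole array. With 3 arrays against 3, an exact two-sided permutation test cannot go below p = 0.1.

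The second KRT20 probe and KRT2 had the lowest differences at 20 µM. On the log2 raw scale, with 0 at the median gene probe of each array, the second KRT20 probe stood at 0.258, 0.354 and 0.406 in control cells, 0.336, 0.438 and 0.213 at 10 µM and 0.126, 0.107 and 0.257 at 20 µM. It was thus lower on every 20 µM array than on any control array, narrowly so for the nearest 2. Its difference at 20 µM against control was -0.18 (SE 0.07, 95% interval -0.33 to -0.021, unadjusted p = 0.0302, adjusted p = 1.000 by limma). Within the 3 scan batches, which each held 1 array of every group, it was -0.13, -0.25 and -0.15. Deviations of same-numbered control and 20 µM arrays from their group means correlated negatively (-0.23, -0.252 and -0.331). These 3 values are therefore not read as a paired result. The call rested on the scaling, with -0.049 (unadjusted p = 0.507) by cyclic loess, -0.12 (unadjusted p = 0.111) by median centring and -0.65 (unadjusted p = 0.196) after normexp background correction. It rested on the test too. With the scaling kept, the unadjusted p was 0.0511 by the methods' test and 0.0552 by limma with a trend and robust fit. It was 0.0651 by limma with array weights and 0.0517 by limma with dim probes filtered out. The call was also lost without the second or the third control array, or the first or the second 20 µM array (unadjusted p = 0.0698, 0.101, 0.0779 and 0.0889). Against 10 µM it was -0.17 (SE 0.07, unadjusted p = 0.0393, adjusted p = 0.993), with -0.21, -0.33 and 0.04 within the batches. The difference at 10 µM against control was -0.011 (SE 0.07, unadjusted p = 0.881), with 0.08, 0.08 and -0.19 within the batches. The first KRT20 probe differed by -0.031 at 20 µM against control (SE 0.072, 95% interval -0.19 to 0.13, unadjusted p = 0.674), an interval that held 0.

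KRT2 stood at 0.491, 0.32 and 0.266 in control cells, 0.324, 0.221 and 0.149 at 10 µM and 0.037, 0.152 and 0.337 at 20 µM on the same log2 raw scale, on which the groups overlapped. Its difference was -0.13 at 10 µM against control (SE 0.086, 95% interval -0.32 to 0.065, unadjusted p = 0.17) and -0.17, -0.1 and -0.12 within the batches, the same sign in each. Without the first control array it was -0.061 and without the third 10 µM array -0.086. For 20 µM against control it was -0.18 (SE 0.086, 95% interval -0.38 to 0.0088, unadjusted p = 0.0595), and -0.45, -0.17 and 0.07 within the batches, of which the third went the other way. Leaving out an array moved the last difference between -0.26 (unadjusted p = 0.00994, without the third 20 µM array) and -0.11 (unadjusted p = 0.216, without the first), and it was -0.12 without the first control array and -0.23 (unadjusted p = 0.0407) without the third. Neither difference passed the threshold in the main fit of all 9 arrays, whereas that at 10 µM did before adjustment in the paired fit of 6 arrays (unadjusted p = 0.0328). With other values of all 9 arrays, the unadjusted p by limma at 20 µM against control varied. It was 0.0462 with the authors' processed values, 0.0687 with net intensity and 0.231 after normexp background correction.

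Both probes were read against bright probes of the array, which were lower at 20 µM as a group. Among the 799 named probes above the bound on all 9 arrays, the median difference at 20 µM against control was -0.16 and 88.9% were lower, and 26.4% were lower with an unadjusted p under 0.05. Their median at 10 µM against control was -0.02, and at 20 µM against 10 µM it was -0.13 with 86.6% lower. The values of KRT2 and the second KRT20 probe at 20 µM against control, -0.18 each, were close to that median on the raw scale. By quantile-normalised log2 net intensity, KRT2 differed by -0.26 at 10 µM and -0.36 at 20 µM against control and the second KRT20 probe by -0.27 and -0.38, with unadjusted p from 0.0687 to 0.212, and these lay further from 0 than the medians of bright probes (0.0 and -0.17). On the log2 scale of the ratio to the bound, KRT2 differed by -0.46 at 10 µM and -0.75 at 20 µM against control and the second KRT20 probe by -0.46 and -0.71, against medians of -0.19 and -0.6 for the 799 bright probes, of which 84.6% and 99% were lower. Both probes thus lay further from 0 than the median bright probe on these last scales, and no test of that gap was made. The bright set was not matched to them in level. It had to be above the bound on every 20 µM array, which the second KRT20 probe was not. KRT2 was above the bound on all 9 arrays and so belonged to that set. The part of this selection in the gap was not tested, and the gap is not read as a trait of these probes.

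KRT17, a keratin of wounded and basal-like epithelium, stood at -0.034, 0.035 and -0.027 in control cells, -0.214, -0.104 and -0.109 at 10 µM and 0.192, -0.016 and -0.064 at 20 µM on the log2 raw scale. The 10 µM arrays were the lowest, without overlap with either other group. The difference at 20 µM against 10 µM was 0.18 (SE 0.069, unadjusted p = 0.0257, adjusted p = 0.993) and 0.41, 0.09 and 0.05 within the batches, so the first batch carried most of it. It was 0.1 (unadjusted p = 0.0951) without the first 20 µM array and 0.14 (unadjusted p = 0.0971) without the first 10 µM array. For 10 µM against control it was -0.13 (SE 0.069, unadjusted p = 0.0805, and 0.0285 in the paired fit of 6 arrays), and at 20 µM against control 0.046 (SE 0.069, unadjusted p = 0.517). All 9 net intensities of KRT17 were below the bound, and by net intensity its difference at 10 µM against control was 0.0035, so no fold is given for it.

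The other named epithelial keratins had intervals at 20 µM against control that held 0. The 95% interval was -0.31 to 0.15 for KRT5, -0.16 to 0.088 for KRT14, -0.16 to 0.21 for KRT10, -0.18 to 0.16 for KRT1, -0.18 to 0.12 for KRT13 and -0.044 to 0.16 for KRT4. For KRT18 it was -0.19 to 0.21, for KRT19 -0.087 to 0.21, for KRT7 -0.056 to 0.18, for KRT6A -0.091 to 0.22 and for KRT16 -0.14 to 0.13. These intervals bound changes in raw intensity, and for probes below the empty spots they say little of the transcript.

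Genes that work with keratins were described in the same way. Of 22 probes for 14 desmosome genes, which tie keratin filaments to cell junctions, 0 had an unadjusted p under 0.05 at 10 µM against control, where 0.780% of all named probes did. In the 20 µM comparison 1 did, JUP (plakoglobin), at -0.27 (SE 0.106, unadjusted p = 0.0314), where 2.34% of named probes did. Of 23 probes for 14 genes of hemidesmosomes and keratin-binding linkers, 0 did at 10 µM, and at 20 µM against control 1 did, a probe of ITGB4, the integrin that anchors keratin at the basement membrane, at -0.21 (SE 0.076, unadjusted p = 0.0187). Of 24 probes for 18 other intermediate filament genes, DES (desmin) alone did at 20 µM against control, at -0.29 (SE 0.113, unadjusted p = 0.029), and of the squamous markers CLDN4 alone did, at -0.23 (SE 0.099, unadjusted p = 0.0392). JUP, DES and CLDN4 were above the bound on all 9 arrays and that ITGB4 probe on 8, so that these too were bright probes lower at 20 µM. Between 20 µM and 10 µM, JUP (-0.25, SE 0.106, unadjusted p = 0.0425) and the same ITGB4 probe (-0.22, SE 0.076, unadjusted p = 0.0169) were again lower, a second ITGB4 probe was lower (-0.29, SE 0.107, unadjusted p = 0.0205), and the desmosomal cadherins DSG3 (0.13, SE 0.055, unadjusted p = 0.0436) and DSG1 (0.19, SE 0.085, unadjusted p = 0.0491) were higher, both below the bound on all 9 arrays. The hair regulator DLX3 (-0.14, SE 0.055, unadjusted p = 0.0306), also below the bound throughout, was lower in that comparison, in which 3.37% of named probes had an unadjusted p under 0.05. None of the 25 cornified envelope, 26 epithelial regulator, 16 hair regulator or 61 keratin-associated protein probes had an unadjusted p under 0.05 at either dose against control, and no probe of any of these lists passed after adjustment.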

How the data were processed

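For each of the 9 arrays the authors deposited scanner intensity values (raw, local background and net intensity, as trimmed means per the file headers) from OneArray Human v5 slides, with 39200 spots each. A further table of the authors' processed values was taken as a score of unknown scaling and centring, and it entered 1 alternative only. The study's methods name log2, median and quantile normalization and an equal-variance test of control against 10 µM; their description of the arrays names no 20 µM group.

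From raw intensity, log2 values of all gene probes were median-centred and quantile-normalised, and a model of all groups with no block was fitted with limma 3.58.1 (R 4.3.3). Each gene probe has 1 spot per array. Empty and control spots and 3809 unnamed gene probes stayed out of the tests, and no filter on dim probes was set. Genes were taken from the names in the files, and RefSeq symbols (GRCh38.p14) were used for names and neighbours only. The scripts were tested on simulated data. The number of arrays limits the precision.

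Probes were named in the text for 13 marker keratins (of which KRT8 was not analysed), for passing the bound on all control or all arrays, for an unadjusted p under 0.05, for brightness within a class, or as probes of a gene with 2 probes. Keratins that passed the bound on 1 array, had groups without overlap or neighbour KRT2 or KRT20 fall outside that rule and were named after their values were seen, as were the single members of marker lists. The keratins, their classes and the other gene lists were chosen with earlier results of these data known.

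Arrays with the same replicate number were scanned as a batch. Deviations from the group means of same-numbered control and 10 µM arrays correlated at 0.137, 0.225 and 0.19, those of control and 20 µM arrays at -0.23, -0.252 and -0.331, and those of 10 µM and 20 µM arrays at -0.0931, -0.0738 and -0.11. By net intensity the control and 10 µM correlations were 0.0661, 0.0866 and 0.00926. On the raw scale of the tests the numbers thus pair the control and 10 µM arrays only. With a replicate block over all 9 arrays, 0 keratin probes had an unadjusted p under 0.05 at 10 µM against control, as without it, and 2 did in the paired fit of those 6 arrays alone.

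Alternatives were normexp (offset 50), net intensity (floor 1), median centring, cyclic loess, the deposited table, a filter on probes above the bound on at least 3 arrays, the methods' test, limma with a trend and robust fit, array weights, 2 groups alone, the replicate block, and leaving out each array. A 90th and a 99th percentile bound were also tried.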

Additional observations from a re-analysis of the deposited data

How the results depend on the processing

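No keratin probe passed after adjustment in any of the 22 alternatives of each comparison. Of all named probes, 1 passed at 20 µM against 10 µM with array weights, the filter, or net intensity with the block. Leaving out an array gave at most 2 in that comparison and at most 1 at 20 µM against control. The keratin counts at an unadjusted p under 0.05 moved. Where the count was 0, for 10 µM against control, it was 2 with normexp (4.08% of all named probes under the same setting), 1 with net intensity (3.48%), 1 with the deposited table (3.63%), 1 with the 2 groups alone (1.2%), 1 with the methods' test (2.27%), 4 with array weights (7.51%), and 0 to 2 leaving out an array. With the replicate block it was 2 on the 2 groups alone (2.1%) and 1 with net intensity (3.25%), both chosen after seeing the data. For 20 µM against control (count 1) it was 2 with net intensity (5.24%), 3 with the deposited table (5.61%), 0 with cyclic loess (1.34%), the filter (11.6% of the probes kept), the methods' test (2.06%), array weights (2.47%), or net intensity with the block (5.21%), and 0 to 3 leaving out an array (0 without the second control array, 2 without the third, 3 without the third 20 µM array). For 20 µM against 10 µM (count 2) it was 1 with the replicate block (2.7%), the 2 groups alone (2.78%) or the methods' test (3.19%), 0 with normexp (5.39%), net intensity (5.23%), median centring (2.9%), cyclic loess (2.53%), the deposited table (5.32%), the filter (9.65% of the probes kept), the 2 groups with the block (2.39%) or net intensity with the block (5.16%), and 1 to 3 leaving out an array. With the block, the second KRT20 probe had an unadjusted p of 0.0491 at 20 µM against control and 0.0613 against 10 µM, and KRT17 0.0457 against 10 µM.

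For epithelial probes at 10 µM against control the median was 0.028 with normexp, -0.1 in the deposited table's own units, and -0.014 to 0.004 leaving out an array. The epithelial median at 20 µM against control was 0.11 with normexp, 0.043 with net intensity (with and without the block), 0.011 with median centring, 0.016 with cyclic loess, 0.14 in the table, -0.057 with the filter, and -0.018 to 0.0053 leaving out an array. Against 10 µM it was 0.12 with normexp, 0.028 with net intensity (with and without the block), 0.025 with cyclic loess, 0.13 in the table, -0.063 with the filter, and -0.0058 to 0.018 leaving out an array. For hair probes at 10 µM against control it was -0.15 with normexp, -0.03 with net intensity (with and without the block), -0.15 in the table, and -0.017 to 0.019 leaving out an array. The hair median at 20 µM against control was 0.19 with normexp, 0.044 with net intensity (with and without the block), 0.13 in the table, and -0.018 to 0.0093 leaving out an array. Against 10 µM it was -0.037 with normexp and 0.0099 to 0.033 leaving out an array. The filter left no hair probe.

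The difference of the second KRT20 probe at 10 µM against control turned to 0.0041 with cyclic loess and 0.019 with array weights, and ran from -0.065 to 0.047 leaving out an array. That of KRT17 turned to 0.049 with normexp and 0.0035 with net intensity (with and without the block), and ran from -0.15 to -0.098 leaving out an array. At 20 µM against control KRT17 ran from -0.031 to 0.097, and at 20 µM against 10 µM KRT2 ran from -0.14 to 0.013. Against control, KRT2 ran from -0.17 to -0.061 at 10 µM and from -0.26 to -0.11 at 20 µM, and the second KRT20 probe from -0.22 to -0.14 at 20 µM. The cause was not tested. With a 90th percentile bound 4 keratin probes were above it on all control arrays, in place of 2, and 2 to 4 leaving out an array, with 0 hair probes under each bound tried. Of the 25378 named probes, 1906 were above the 90th percentile bound on all control arrays, in place of 1681. Leaving out a control array gave 1711 to 2078 named probes. Signal close to the empty spots limits all of these values.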
